A study of Mus musculus with 8 samples.

Results

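Trimethylation of histone H3 on lysine 9 (H3K9me3) was examined in the first megabase of assembled sequence of each mouse autosome, the stretch next to the centromere. The members are the 5-kb windows of chromosomes 1 to 19 between 3 and 4 Mb of the mm9 build that held a tag, a mapped and extended sequencing read, in any of 8 libraries. They numbered 3635 of the 3800 windows of that stretch, and 0.72% of the 505161 windows with a tag on chromosomes 1 to 19 and X. They were compared with the 37661 windows with a tag between 10 and 20 Mb of the same chromosomes.

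Mouse chromosomes are telocentric: the centromere lies at one end, and the reference sequence opens with an unsequenced gap in place of the centromeric minor and pericentromeric major satellite repeats. Pericentromeric satellite is the best known site of H3K9me3 in mouse cells, where the Suv39h enzymes place the mark and HP1 proteins bind it. *Setdb1* encodes another H3K9 methyltransferase, brought by KRAB zinc finger proteins and Trim28 to single loci, in ES cells above all to endogenous retroviruses. The first assembled megabase thus joins the satellite on one side and ordinary chromosome arm on the other.

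The libraries came from JM8 ES cells, feeder-free lines of the C57BL/6N strain (agouti substrain) grown on gelatin in serum and LIF. Both *Setdb1* alleles were engineered, one conditional and one null (tm2). The labels call the conditional allele tm1a and its deleted form tm1c, while the study's own text calls them tm1c and tm1d. *T* = 0 cells were untreated, and *T* = 2d, *T* = 4d and *T* = 6d cells had received 0.8 µM 4′OHT for 48 h to activate CreERT2, expressed from the Rosa26 locus, and were then grown without it. H3K9me3 was precipitated with a gift antibody similar to one of Upstate/Millipore (lot 4861, called Upstate-type here) at all 4 time points, and with lots 58206 and 638466 of an Abcam antibody at *T* = 0 and *T* = 6d. There was 1 library per antibody and time point, so differences between *T* = 0 and later libraries have no biological replicate. Precipitates from *tm1c/+* control cells and input DNA were not analysed here, so more of the mark and more copies of the sequence cannot be told apart in any level below.

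Depth was 6887819 tags for every Upstate-type library, 8503927 for both of lot 58206 and 12194174 for both of lot 638466, and the median window of the genome held 8 or 9, 15 or 16, and 24 or 25 tags respectively. Only 51 to 68 tags per library had their midpoint before 3 Mb on the autosomes, so the satellite itself is outside these data. No start position was repeated within a library. A start could therefore add at most 1 tag to a library, which limits the tags that a window with few usable starts can hold. Intervals below are at 95%. Those of tags cover counting error only, and those of shares treat windows as independent draws. Neither kind covers the spread between cultures.

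Before treatment the first megabase held more H3K9me3 tags per window than 10 to 20 Mb on most chromosomes, but not on all, and the chromosomes differed more from each other than the antibodies did. At *T* = 0 the mean was 17.9 tags per member window with the Upstate-type antibody against 12.4 between 10 and 20 Mb. With lot 58206 it was 19.8 against 16.1, and with lot 638466 27.9 against 22.3. The typical window hardly differed: the medians were 10 and 9, 16 and 15, and 23 and 22 tags. On 12 chromosomes the mean was above that of 10 to 20 Mb with each of the 3 antibodies, on 5 (chromosomes 1, 4, 10, 14 and 16) it was below with each, and on 2 the antibodies split.

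**Figure D1:**
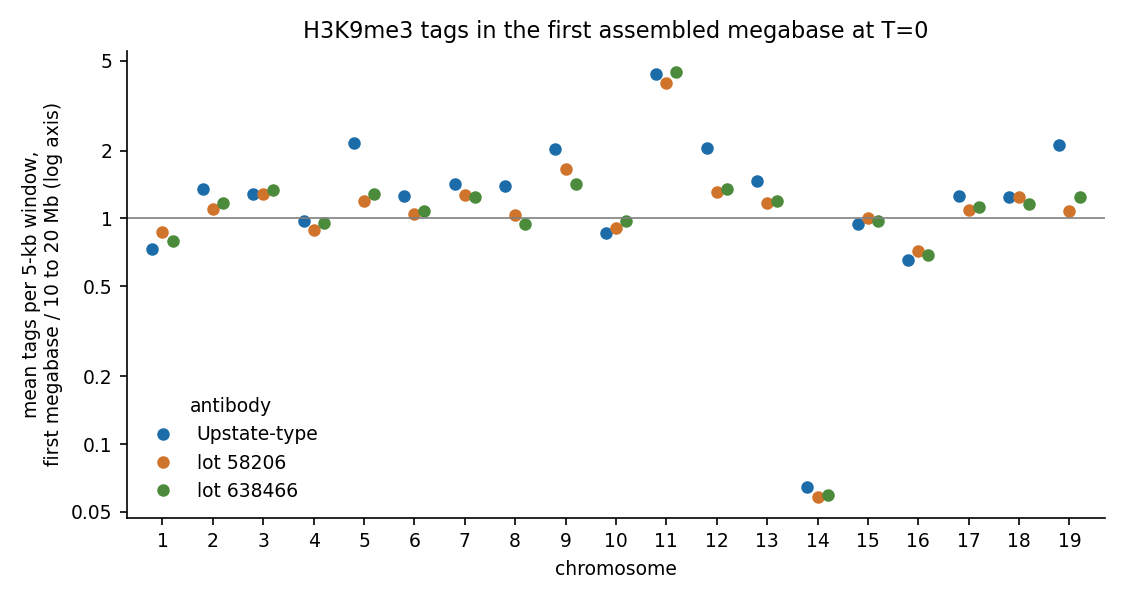
Mean tags per 5-kb window of the first assembled megabase divided by the mean between 10 and 20 Mb of the same chromosome, on a log axis, for the 3 *T* = 0 libraries (1 point per antibody and chromosome). Chromosome 11 lies highest, at 4.0 to 4.46 times, and chromosome 14 lowest, at 0.0585 to 0.0648 times.

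Chromosome 11 held the highest level, with a mean of 51.5 tags per member window in the Upstate-type *T* = 0 library, 4.35 times its 10 to 20 Mb mean. Lots 58206 and 638466 gave 4.0 and 4.46 times. Chromosomes 5, 9, 12 and 19 exceeded 2 times with the Upstate-type antibody (2.15, 2.04, 2.06 and 2.12), and none of them did so with either Abcam lot, where chromosome 9 came nearest (1.65 and 1.42). Chromosome 14 held the lowest level: only 84 of its windows held a tag, with a mean of 0.76, 1.0 and 1.43 tags. Of the others, chromosome 16 had the lowest ratio to its 10 to 20 Mb mean (0.657, 0.721 and 0.689 times), though not the fewest tags. With the Upstate-type antibody its mean was 13.72 tags per member window against 20.89 between 10 and 20 Mb. On chromosome 1 these means were 9.22 and 12.59.

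Across the 19 chromosomes the median ratio at *T* = 0 was 1.29 with the Upstate-type antibody (13 chromosomes above 1), 1.09 with lot 58206 (14 above) and 1.16 with lot 638466 (12 above). None of the 8 libraries passed a two-sided exact Wilcoxon signed-rank test over chromosomes, adjusted over the 8: the exact *P* was 0.0546, 0.145 and 0.145 at *T* = 0 (adjusted 0.161, 0.193 and 0.193). Without chromosome 14, a choice made after seeing the data, the Upstate-type libraries at *T* = 0, *T* = 2d and *T* = 4d passed the exact test, each with an adjusted *P* of 0.0321. Against 20 to 30 Mb the median log2 ratio at *T* = 0 was 0.066 for Upstate-type, -0.023 for 58206 and 0.005 for 638466 tags, where it had been 0.363, 0.121 and 0.208 against 10 to 20 Mb, so the size of the excess depended on the comparison stretch. The test covers the spread between chromosomes of 1 library, not between cultures.

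The excess sat in a minority of windows. At *T* = 0, 15.2% of the members reached 3 times the genome median with the Upstate-type antibody (exact binomial interval 14 to 16.4%), against 7.16% between 10 and 20 Mb (6.90 to 7.42%). With lot 58206 the shares were 2.72% (2.22 to 3.31%) and 0.887% (0.795 to 0.987%), and with lot 638466 1.16% (0.834 to 1.56%) and 0.122% (0.0894 to 0.163%). The intervals do not overlap for any antibody, although neighbouring windows are not independent. These windows held 54.3% of the members' tags with the Upstate-type antibody and 21.7% and 16.8% with the Abcam lots. With all 3 antibodies at once, 38 member windows (1.05%) reached 3 times the median, against 35 windows (0.0929%) between 10 and 20 Mb. The 38 lay on 10 chromosomes, 17 of them on chromosome 11 and 7 on chromosome 9. At 10 times the median with all 3 antibodies there were 20 of the 3635 member windows and 0 of the 37661 between 10 and 20 Mb.

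Next to the gap itself the median chromosome held few tags, while single chromosomes held many. In the first 50 kb the median chromosome was at 0.584 times its 10 to 20 Mb mean with the Upstate-type antibody. Lots 58206 and 638466 gave 0.640 and 0.700, and from 50 to 100 kb the values were 0.409, 0.530 and 0.558. The mean over all windows of the first 50 kb was 28.03, 38.94 and 53.69 tags, above the 10 to 20 Mb means. With the Upstate-type antibody the chromosomes ran from 0 to 17.6 times. Only reads placed at a single site were kept, and the part of mappable sequence next to the gap was not tested. From 200 to 250 kb it was at 1.01, 1.06 and 1.06, but with the Upstate-type antibody it was back at 0.853 from 250 to 300 kb and lay between 0.791 and 0.971 in the steps from 650 to 950 kb. From 500 to 550 kb the Upstate-type antibody gave 2.13 times, with 12 of 18 chromosomes above 1, while lots 58206 and 638466 gave 1.29 and 1.24. These profiles are a description across chromosomes that share a library.

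**Figure D2:**
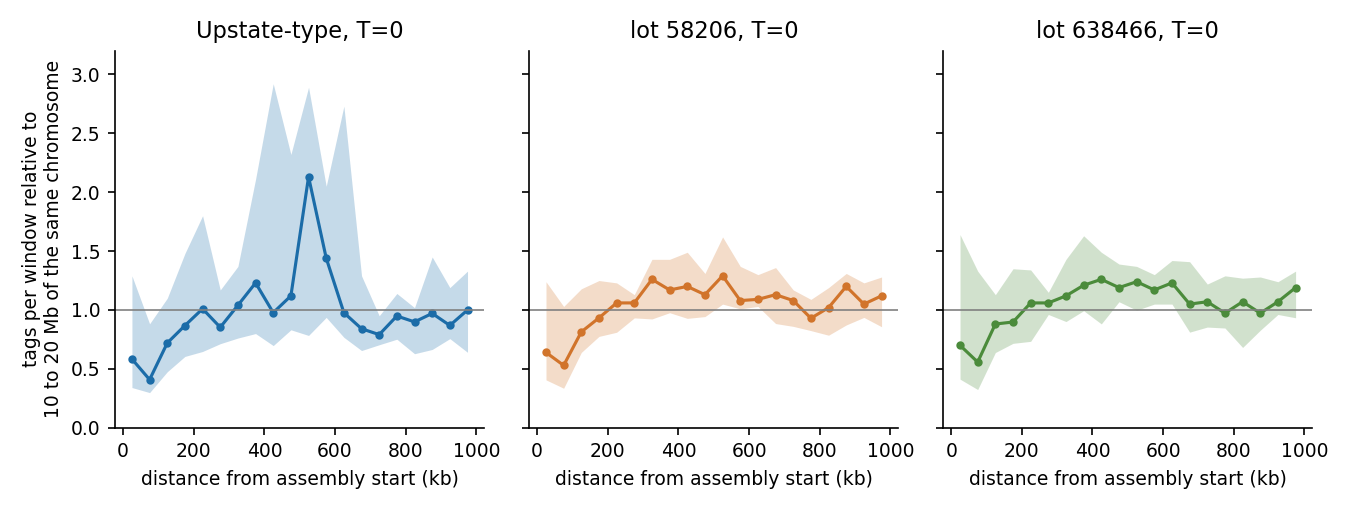
Tags per window in 50-kb steps from the start of the assembled sequence, divided by the 10 to 20 Mb mean of the same chromosome, at *T* = 0. Lines are medians over 18 or 19 chromosomes and bands run between the quartiles. All 3 lines start below 1, and the Upstate-type band widens between 350 and 650 kb, where its median peaks at 2.13.

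The same start positions came back in different libraries more often here than in the arm. Of all tags in the members, 13.5% lay at a start that another library also held, against 3.50% between 10 and 20 Mb, although the median window was similar (2.82% and 2.27%). In 52 member windows (1.43%) at least 20% of the tags lay at such starts, against 71 windows (0.189%) between 10 and 20 Mb. Windows rich in tags repeat starts more often for that reason alone, and the part of few mappable positions in the levels below was not tested.

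The windows of highest level lay at the very start of chromosomes 9 and 11. On chromosome 9, 7 windows between chr9:3000001-3005000 and chr9:3035001-3040000 reached 3 times the median with all 3 antibodies at *T* = 0. They held 2015, 2407, 2234 and 1885 tags in the Upstate-type libraries from *T* = 0 to *T* = 6d, 2063 and 2166 with lot 58206, and 2125 and 2331 with lot 638466. All 8 libraries thus held nearly the same number, although the Abcam libraries held 1.23 and 1.77 times as many tags in all. Between 91.1% and 97.7% of the tags of these windows lay at recurring starts. The highest of them, chr9:3025001-3030000, held 456, 566, 525 and 435 tags with the Upstate-type antibody, 485 and 533 with lot 58206 and 501 and 532 with lot 638466, all at only 810 distinct starts. Its limma log2 change at *T* = 6d was 0.05 ± 0.25 (SE), and over the 7 windows the log2 changes ran from -0.05 to 0.06 with a lowest adjusted *P* of 0.982.

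The longest run of neighbouring windows at 3 or more times the median with all 3 antibodies at *T* = 0 was on chromosome 11, chr11:3025001-3100000, 15 windows long. Its median window held 275, 521 and 834 tags at *T* = 0 (30.6, 32.6 and 34.8 times the genome median), so relative to the rest of the library the 3 antibodies gave almost the same height. Unlike on chromosome 9, the Abcam libraries held more tags here than the Upstate-type library. Recurring starts made up 48.5 to 76.2% of the tags of a window. Of the 10 member windows with the highest mean level over the 3 *T* = 0 libraries, 9 lay in this run and the other was chr9:3025001-3030000. The protein-coding gene nearest the centromere end of chromosome 11 in RefSeq's GRCm38 annotation, read for gene order only, is Sfi1, whose product is a centrosome protein.

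A single peak within the run held fewer tags after 4′OHT with each antibody, while the rest of the run did not follow it. The highest member window of all, chr11:3090001-3095000, held 812, 554, 299 and 228 tags in the Upstate-type time course, 1200 and 909 with lot 58206, and 1518 and 921 with lot 638466. All 3 antibodies gave fewer tags at *T* = 6d, to 0.281, 0.758 and 0.607 of *T* = 0. Fisher's exact test on the tags of each pair of libraries called it lower with the Upstate-type antibody at *T* = 4d and *T* = 6d (*P* = 3.06e-55 and 2.45e-77) and with lot 638466 (*P* = 7.35e-34). With lot 58206 Fisher's exact *P* was 2.53e-10 but the change was under 1.5-fold. The window was picked for its *T* = 0 level, and the same *T* = 0 libraries enter each comparison, which favours a fall. Across the antibodies its limma log2 change was -0.98 ± 0.29 (SE), which missed the threshold (adjusted *P* = 0.0708, and 7.75e-05 when limma was fitted to windows of at least 3 times the median only).

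At a resolution of 1 kb, chosen after seeing the data, the peak covered the 4 kb chr11:3091001-3095000. With lot 58206, 3 of these 4 kb held fewer tags at *T* = 6d, and 1 did not (384 and 425 tags). The 4 kb held 190 tags per kb at *T* = 0 with the Upstate-type antibody, 3.71 times the 51.1 tags per kb of the other 14 windows of the run, and 44.2 at *T* = 6d, 0.709 times the 62.4 per kb beside it. With lot 638466 the peak went from 2.24 to 1.26 times the rest of the run, and with lot 58206 from 2.77 to 2.13 times. The other 14 windows held 3577 and 4367 tags at *T* = 0 and *T* = 6d with the Upstate-type antibody (1.22 times), 7018 and 6907 with lot 58206 (0.984 times) and 10909 and 11074 with lot 638466 (1.02 times).

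**Figure D3:**
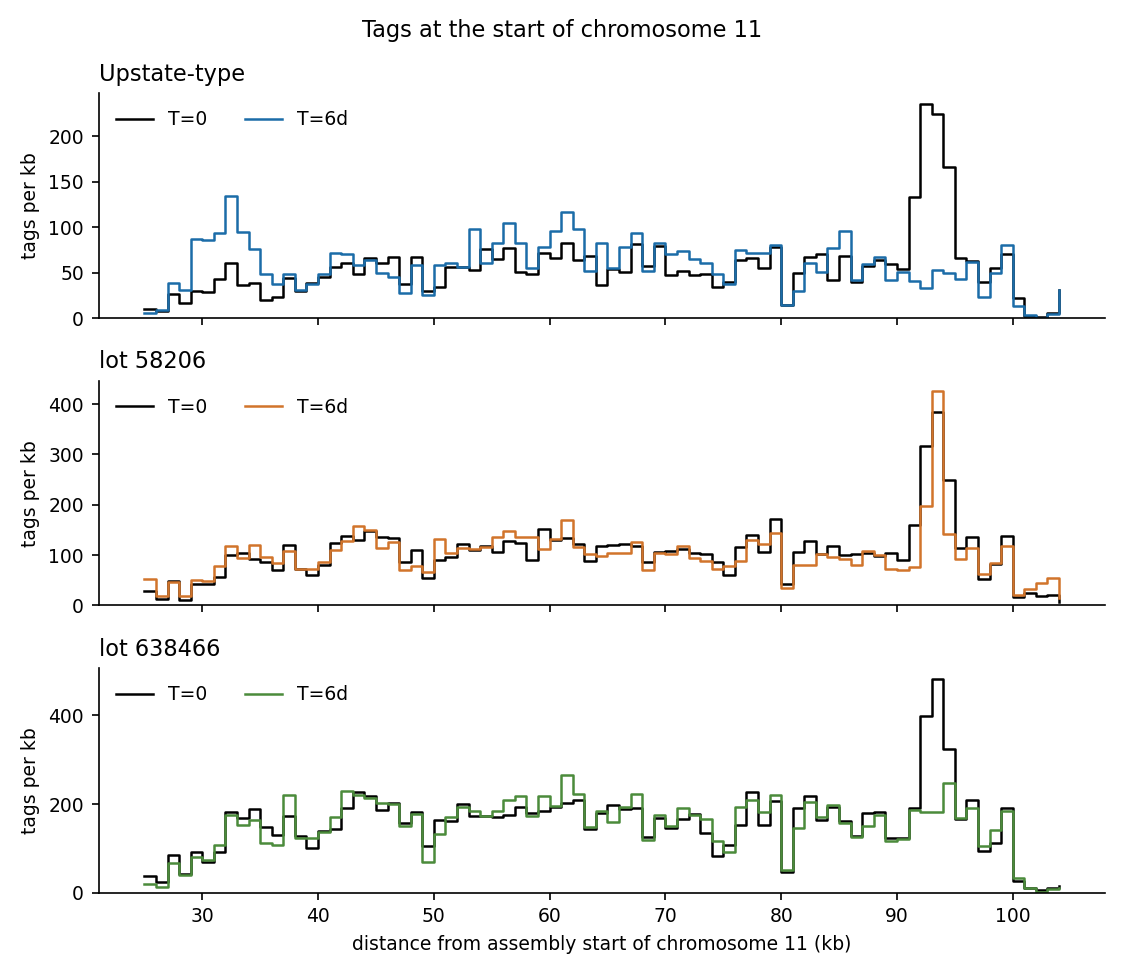
Tags per kb at the start of chromosome 11 by distance from the start of the assembled sequence, at *T* = 0 (black) and *T* = 6d (colour), 1 panel per antibody with its own axis from 0. The peak between 91 and 95 kb held 2.24 to 3.71 times the tags per kb of the rest of the run at *T* = 0. At *T* = 6d it held 0.709 to 2.13 times. With the Upstate-type antibody the peak lay below the rest of the run at *T* = 6d, and the left end of the run rose.

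At the other end of the run tags were higher at *T* = 6d with the Upstate-type antibody. Window chr11:3030001-3035000, picked out after its values were seen, held 207, 205, 310 and 485 tags from *T* = 0 to *T* = 6d, 2.34 times (Fisher's exact *P* = 1.29e-26 at *T* = 6d). Lot 58206 gave 397 and 459 tags and lot 638466 702 and 672. The limma log2 change was 0.45 ± 0.28 (SE, adjusted *P* = 0.687), and whether the antibodies differed was not tested.

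A further high window lay beside the gap of chromosome 18, chr18:3005001-3010000, also picked out after its values were seen. It held 286, 254, 158 and 118 tags with the Upstate-type antibody, 380 and 236 with lot 58206, and 434 and 346 with lot 638466, with 76.4% of its tags at recurring starts. Each antibody gave fewer tags at *T* = 6d. Fisher's exact test called the fall with the Upstate-type antibody at *T* = 4d and *T* = 6d and with lot 58206, and not with lot 638466, where the ratio was 0.797. Its limma log2 change was -0.75 ± 0.27 (SE, adjusted *P* = 0.191).

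The study used a stretch at the start of chromosome 4 as a control region, and the window there is chr4:3015001-3020000. It held 90, 88, 68 and 62 tags in the Upstate-type time course, 77 and 72 with lot 58206, and 91 and 100 with lot 638466. At *T* = 0 it stood at 10.0, 4.81 and 3.79 times the genome median, a rank of 1029 among all windows by the mean of the 3. The Upstate-type libraries went from 90 tags (exact Poisson interval 72.4 to 111) to 62 (47.5 to 79.5), a ratio of 0.689 with a Fisher's exact *P* of 0.0282, which misses the 0.01 limit used here. The Abcam ratios were 0.935 and 1.10, and the limma log2 change was -0.16 ± 0.26 (SE, adjusted *P* = 0.939). The control window is one of those with recurring starts: 52.8% of its tags lay at a start held by another library, and the 8 libraries used 426 distinct starts.

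Its neighbours differed from it in level. Towards the gap, the 5-kb window from position 3010001 held 47, 26, 27 and 18 tags with the Upstate-type antibody (called lower at *T* = 6d, Fisher's exact *P* = 0.000422), but 55 and 59 with lot 58206 and 126 and 110 with lot 638466. Beyond it, chr4:3005001-3010000 held 31, 34, 25 and 25, then 66 and 43, then 131 and 87 tags, and was called lower with lot 638466 alone (ratio 0.664, *P* = 0.00349 by Fisher's exact test). On the other side, chr4:3020001-3025000 held 1 to 4 tags and chr4:3025001-3030000 0 to 2 tags in every library, so no change could be measured there. The tags of the control window thus ended at an edge with almost no mapped tags.

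Most windows of high level with the Upstate-type antibody were not high with the Abcam lots. Of the 552 member windows at 3 or more times the Upstate-type median at *T* = 0, 401 (72.6%) were under 2 times the median with both Abcam lots. Between 10 and 20 Mb this held for 2128 of 2695 (79.0%), so it is not particular to the first megabase. The 552 windows formed 187 runs, of which 10 (5.35%) were at least 10 windows long, against 56 of 1022 runs (5.48%) between 10 and 20 Mb. Leaving out the run that opens chromosome 11, 9 such runs of 10 to 21 windows lay on chromosomes 5, 8, 11, 12, 13, 17, 18 and 19. They averaged 4.68 to 10.1 times the median with the Upstate-type antibody, 1.08 to 1.69 times with lot 58206 and 0.980 to 1.84 times with lot 638466 at *T* = 0.

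The strongest of these was chr19:3455001-3530000, 75 kb long, at 90.7, 107, 89.8 and 84.3 tags per window with the Upstate-type antibody from *T* = 0 to *T* = 6d, against 19.8 and 14.3 with lot 58206 and 32.4 and 31.5 with lot 638466. The longest were chr12:3400001-3505000 and chr17:3115001-3220000, each 105 kb, at 66.8 and 51.8 tags per window at *T* = 0. These domains did not share a direction over time: the Upstate-type ratio of *T* = 6d to *T* = 0 ran from 0.537 to 1.49 and was above 1 in 6 of the 9. The largest ratio was that of chr13:3540001-3600000, with 75.8, 125, 132 and 113 tags per window, and the smallest that of chr17:3505001-3555000, with 42.1, 42.3, 27.8 and 22.6. Genes nearest the centromere end in the GRCm38 gene order include Insr, the insulin receptor, on chromosome 8, Rab10, a vesicle traffic GTPase, on chromosome 12, and Cpt1a, which brings fatty acids into mitochondria, on chromosome 19. The domains were not assigned to genes.

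As a whole the first megabase changed little after 4′OHT. The members held 65124, 67226, 64987 and 61878 tags in the Upstate-type time course, 71910 and 66967 with lot 58206, and 101248 and 96461 with lot 638466. The *T* = 6d totals were thus 0.950, 0.931 and 0.953 of those at *T* = 0, while the totals between 10 and 20 Mb were 0.956, 0.960 and 1.04. Chromosome by chromosome, the log2 change of the first megabase minus that of 10 to 20 Mb had a median of 0.028, -0.008 and -0.019 at *T* = 2d, *T* = 4d and *T* = 6d with the Upstate-type antibody (exact Wilcoxon *P* = 0.595, 0.798 and 0.568). It was -0.016 with lot 58206 (lower on 13 of 19 chromosomes, exact *P* = 0.134) and -0.157 with lot 638466 (lower on 14 of 19, exact *P* = 0.00714, adjusted over the 5 comparisons 0.0357).

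**Figure D4:**
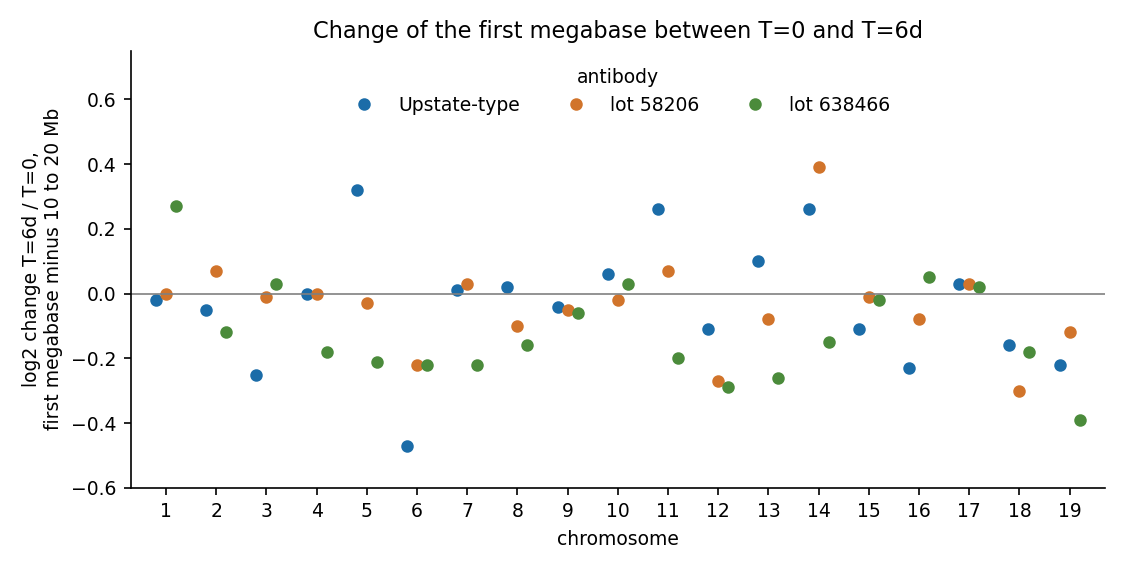
Log2 change from *T* = 0 to *T* = 6d of the first megabase minus that between 10 and 20 Mb of the same chromosome, 1 point per antibody. Chromosomes 6, 9, 12, 15, 18 and 19 lie below 0 with all 3 antibodies and chromosome 17 alone above 0 with all 3. The points of chromosome 14 rest on few tags.

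That call of lot 638466 rested on the choices made: its adjusted *P* rose to 0.0602 without chromosome 9, 11 or 14 (each left out alone) and to 0.455 against 20 to 30 Mb. The median in place of the mean per window gave a fall of the first megabase relative to 10 to 20 Mb that passed with each antibody. With the Upstate-type antibody the median log2 difference was -0.152 at *T* = 4d and -0.159 at *T* = 6d. The adjusted *P* of the exact test was 0.0128 and 0.00641, over the 18 chromosomes where the value was defined. Lot 58206 (-0.206, 0.00483) and lot 638466 (-0.155, 0.00483) also passed, over 19. Upstate-type medians are small counts, 10, 9, 9 and 8 tags over all members from *T* = 0 to *T* = 6d. Their changes come in coarse steps and can tie, for which the exact test makes no allowance.

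A limma model of *T* = 6d against *T* = 0 with antibody as a term was also fitted to 1-Mb bins, in which counting error is small. Of 2548 bins of the genome, 10.8% were lower and 17.3% higher at an adjusted *P* below 0.05. Of the 18 first-megabase bins tested (chromosome 14 had too few windows with a tag), 3 were lower and 0 were higher. A log2 change below 0 was found in 15 of the 18, beside 1255 of all 2548 bins. At an unadjusted limma *P* below 0.05, 5 of the 18 were lower and 0 higher, beside 455 and 589 of the 2548. The fall was largest on chromosome 19 (log2 change -0.23 ± 0.07, adjusted *P* = 0.0175), and chromosomes 12 (-0.22 ± 0.06, 0.0203) and 18 (-0.21 ± 0.06, 0.0233) also passed. All 3 fell with each antibody: on chromosome 19 the log2 changes were -0.24, -0.10 and -0.34. Chromosome 5 had the largest positive value, 0.04 ± 0.07 (adjusted *P* = 0.725), with 0.25 from the Upstate-type antibody and -0.10 and -0.04 from the Abcam lots. On chromosome 11, the bin with the highest level, the change was -0.04 ± 0.80, an SE moderated by limma's trend and well above the spread of the antibodies' own values (0.04, -0.03 and -0.13). Without the windows of recurring starts 2 bins were lower and without lot 58206 only 1 was, and antibodies are not biological replicates.

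Window by window, more members fell than rose by Fisher's exact test from *T* = 4d on. At *T* = 2d with the Upstate-type antibody, 0.880% of the members were lower and 1.40% higher, beside 0.792% and 0.801% of all windows. At *T* = 4d the members' shares were 4.15% lower and 2.20% higher, beside 2.08% and 1.06% of all windows, and at *T* = 6d 6.19% (225 windows) and 2.39% (87 windows), beside 3.08% and 1.96%. Lot 58206 gave 4.18% lower and 2.06% higher among the members and 1.98% and 1.75% among all windows, and lot 638466 3.69% and 1.21% against 1.93% and 1.11%. The members' share of lower windows at *T* = 6d was thus above the background with each antibody, in a set of windows that also held more tags and so could pass the test more readily. Between 10 and 20 Mb the shares lower at *T* = 6d were 3.93%, 2.31% and 1.65%. The test compares 2 libraries and not the conditions.

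Among windows rich in H3K9me3 the order turned. Windows were taken as rich where the *T* = 0 tags of both Abcam lots added up to 3 or more times their median, which chooses them apart from the Upstate-type libraries. They numbered 1162 in the genome, 51 in the first megabase and 68 between 10 and 20 Mb. With the Upstate-type antibody 20.8%, 44.1% and 50.4% of the 1162 were lower at *T* = 2d, *T* = 4d and *T* = 6d. Of the 51 members, 1.96% (1 window), 19.6% (10) and 23.5% (12) were lower, with an exact interval of 12.8 to 37.5% at *T* = 6d, against 57.4% (44.8 to 69.3%) between 10 and 20 Mb. Shares called higher were 1.96%, 0% and 5.88% of the members, beside 3.96%, 1.03% and 1.03% of the 1162. Summed over the windows, Upstate-type tags at *T* = 6d were 0.937 of *T* = 0 in the 51 members and 0.468 in the 68 windows between 10 and 20 Mb. Of the 51, 28 lay on chromosomes 9 and 11. The chromosome 11 run of 15 windows and the 7 chromosome 9 windows held 4389 and 2015 of the members' 8395 tags at *T* = 0. At *T* = 6d they held 4595 and 1885 of 7864. The members' sum thus mostly follows these stretches. The intervals take the windows as independent, which neighbours are not.

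The 51 were also divided by recurring starts, as a description. Of the 51, 32 had at least 20% of their tags at starts found in more than 1 library, on 8 chromosomes, and 3 of those (9.38%, interval 1.98 to 25%) were lower at *T* = 6d. Of the other 19, 9 were lower (47.4%, 24.4 to 71.1%) and none was higher. Between 10 and 20 Mb only 4 of the 68 windows had such starts, and of the other 64, 59.4% (46.4 to 71.5%) were lower. The intervals of 19 and 64 windows overlap widely. Recurrence was counted over all 8 libraries, the later ones included, so a window that keeps its tags can repeat more starts. Counted between the 2 Abcam *T* = 0 libraries alone, 12 of the 51 reached 20% and 3 of these (25%, 5.49 to 57.2%) were lower at *T* = 6d, against 9 of the other 39 (23.1%, 11.1 to 39.3%), so the shares then did not separate. Both divisions were made after seeing the data, and the members with recurring starts are mostly neighbours on chromosomes 9 and 11.

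**Figure D5:**
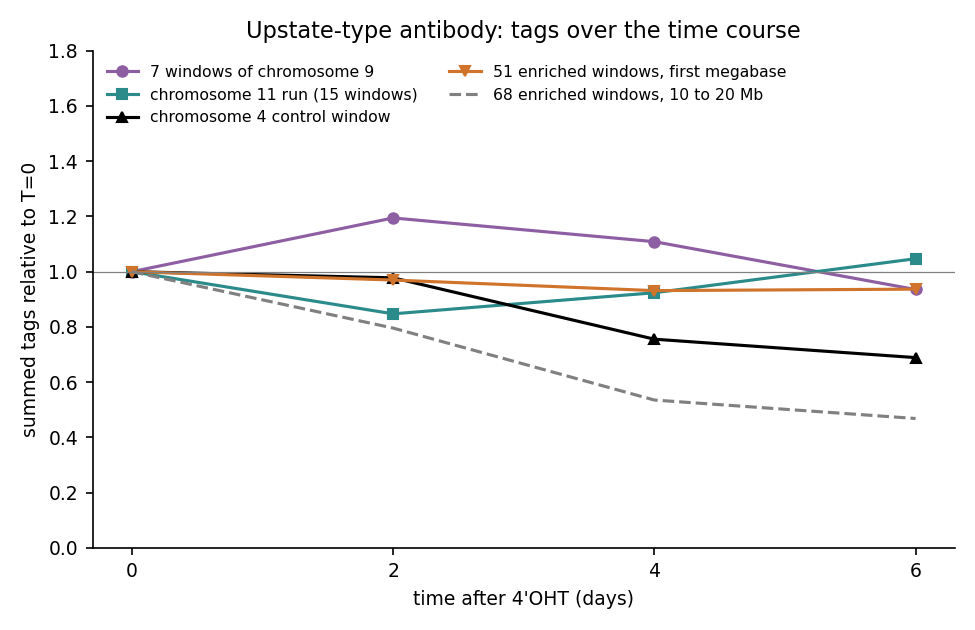
Summed Upstate-type tags relative to *T* = 0 by days after the start of 4′OHT, with 1 library per time point. The 7 windows of chromosome 9, the run of 15 windows on chromosome 11 and the 51 enriched windows of the first megabase ended at 0.935, 1.05 and 0.937, and the control window of chromosome 4 at 0.689. The 68 enriched windows between 10 and 20 Mb (dashed) ended at 0.468. The 51 windows include those of the other first-megabase lines, so these lines are not separate sets.

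The limma test across all windows of at least 2 times the median called single windows of the first megabase lower. Of 42810 windows tested, 3.49% were lower and 0.0234% higher at *T* = 6d (adjusted *P* below 0.05 and over 1.5-fold). Of the 525 members tested, 22 (4.19%) were lower and 0 were higher. Between 10 and 20 Mb 123 of 2307 (5.33%) were lower. At an unadjusted limma *P* below 0.05, 42 of the 525 members were lower and 5 higher, beside 3998 and 451 of all 42810 windows. The median log2 change was -0.048 over the tested members and -0.121 over all tested windows. The share of lower members was thus near the background. Without the Upstate-type antibody 9 members were lower, and without lot 638466 11 were lower and 1 higher.

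The 22 windows lay on 13 chromosomes, 6 of them on chromosome 13 and 3 on chromosome 18, and only 2 lay in the first 100 kb. They were chosen for their fall from *T* = 0 to *T* = 6d, so their log2 changes, from -1.81 to -1.15, and their values at those times are a description. Just 1 of them, chr6:3150001-3155000, had at least 20% of its tags at recurring starts. Together they held 1232, 885, 466 and 364 tags in the Upstate-type time course, 1086 and 399 with lot 58206, and 1384 and 544 with lot 638466. The *T* = 2d and *T* = 4d libraries did not enter the limma model. Fisher's exact test called 6 of the 22 lower and 0 higher at *T* = 2d, and 20 lower at *T* = 4d. All comparisons share the *T* = 0 library, whose high values helped choose the windows, and this favours calls of lower. These counts are thus a description too, and the share among windows lowered elsewhere was not computed.

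The largest fall was that of chr18:3115001-3120000, which held 36, 17, 7 and 4 tags with the Upstate-type antibody, 58 and 15 with lot 58206, and 85 and 30 with lot 638466 (log2 change -1.81 ± 0.29, adjusted *P* = 0.000616). It stood at 3.54 to 4.0 times the median at *T* = 0 with all 3 antibodies. In chr13:3620001-3625000 there were 40, 24, 8 and 6 tags, then 45 and 16, then 76 and 16 (-1.79 ± 0.30, adjusted *P* = 0.000809). Both windows declined at each step of the Upstate-type time course.

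In chr18:3405001-3410000 there were 120, 98, 76 and 54 tags with the Upstate-type antibody, 59 and 7 with lot 58206, and 59 and 13 with lot 638466 (-1.79 ± 0.29). Window chr8:3545001-3550000 held 66, 47, 24 and 22, then 60 and 19, then 88 and 12 tags (-1.76 ± 0.28). The last, chr2:3405001-3410000, held 127, 151, 70 and 48, then 72 and 12, then 68 and 21 tags (-1.67 ± 0.27), and so was not lower at *T* = 2d. The limma adjusted *P* of these 3 windows was 0.000714, 0.000613 and 0.00076.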

How the data were processed

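Per the study's supplementary methods, the authors mapped ChIP-seq reads to the mouse genome, kept reads placed at a single site with at most 1 mismatch, brought the libraries of an antibody to the same number of tags, made each tag 300 bp long and deposited coordinates with no score or value (unit: other). The build is mm9 per the labels. The aligner and its version are not given in the sources used here. No start repeats within a deposited file, which caps the tags of high windows with few mappable positions.

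Tags were placed by their midpoint in 5-kb windows with numpy 2.4.6 and pandas 2.3.3 in Python 3.11.15, and compared within an antibody by tests of scipy 1.17.1. Fisher's exact test was two-sided on tags inside and outside a window, and called windows past 1.5-fold at *P* below 0.01. Chromosomes were compared by the two-sided exact Wilcoxon signed-rank test. limma 3.58.1 in R 4.3.3 (lmFit, eBayes with trend) was fitted on log2(tags per 1000000 + 0.5), which understates changes of low windows, with Benjamini-Hochberg adjustment over all windows whose average reached 2 times the median, or over 1-Mb bins with at least 100 windows holding a tag. Fits and calls were tested on simulated data. Figures were drawn with matplotlib 3.10.9.

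Groups follow the labels' time point and antibody. The replicate number is the antibody's and pairs libraries of the same antibody: relative to the mean of a time point, both libraries of an antibody deviated together across windows, with r = 0.876 (Upstate-type), 0.863 (lot 58206) and 0.445 (lot 638466). The members, region lists and tests were chosen with earlier results of these data known. The windows named are the chromosome 4 control window with 2 neighbours on each side, the 10 highest members at *T* = 0, the 5 largest falls and up to 3 rises past the limma threshold (no rise passed), and the longest run. Others are marked in the text as picked out after seeing values. No sequence is printed, since no mm9 genome was used here. The number of per-sample columns left unused was 0. Alternatives were other window widths, comparison regions, scalings, pseudocounts and filters, and leaving out chromosomes or antibodies.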

Additional observations from a re-analysis of the deposited data

How the results depend on the processing

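Of 88 recomputed levels against 10 to 20 Mb, 79 did not turn to the opposite sign and kept their side of the threshold. Among these, the median log2 ratio with the median per window was 0.0 in 3 libraries and so kept no direction. They were Upstate-type *T* = 2d and *T* = 6d and lot 638466 *T* = 6d. For lot 58206 the median log2 ratio turned to -0.023 at *T* = 0 and -0.069 at *T* = 6d against 20 to 30 Mb, and at *T* = 6d to -0.115 with the median per window, -0.01 without windows above 20 times the median and -0.01 without windows of recurring starts. Without chromosome 14 lot 638466 at *T* = 6d turned to 0.011, and the Upstate-type ratios of 0.4, 0.408 and 0.266 at *T* = 0, *T* = 2d and *T* = 4d passed. Of 55 recomputed changes after 4′OHT, 41 held. The Upstate-type *T* = 2d value turned to -0.006 against 20 to 30 Mb and -0.086 with the median per window, *T* = 4d to 0.023 without the first 100 kb, 0.029 with windows holding a tag in every library and 0.031 without chromosome 14, and *T* = 6d to 0.007 without the first 100 kb. With the median per window the falls of -0.152 (*T* = 4d), -0.159 (*T* = 6d) and -0.206 (lot 58206) passed. Lot 638466 no longer passed at -0.055 against 20 to 30 Mb, -0.169 without chromosome 9 or without chromosome 14, -0.154 without chromosome 11 and -0.149 with windows holding a tag in every library. The cause of these changes was not tested. Other window widths, which hold fewer or more tags per window, gave other Fisher shares. In 2-kb windows the percent lower and higher were 0.358 and 0.693, 1.83 and 1.01, and 2.57 and 1.25 in the 3 later Upstate-type libraries, 1.57 and 1.17 with lot 58206, and 1.51 and 0.425 with lot 638466. In 10-kb windows they were 1.64 and 2.19, 6.94 and 3.61, 10.8 and 4.04, then 6.89 lower with lot 58206 and 1.97 higher with lot 638466. Scaling to windows under 1.5 times the median gave 4.04% higher at *T* = 2d, and 5.75% lower and 0.55% higher with lot 638466. Among enriched members the percent lower at *T* = 2d was 0 in 10-kb windows and at 5 times the median, 3.33 without windows above 20 times the median, 4.73 at 2 times the median and 5.26 without windows of recurring starts. At *T* = 4d it was 9.52 in 10-kb windows, 7.69 at 5 times the median and 36.8 without windows of recurring starts, and at *T* = 6d 7.69 and 47.4 under these last 2 settings. By limma, leaving out 1 antibody gave 9 to 16 lower and 0 to 1 higher member windows, and 1 to 4 lower bins. The fit without the antibody as a replicate block gave 1 lower window and 0 lower bins. A filter at 3 times the median left 6 lower windows and no filter gave 106, and background scaling gave 5 lower bins. None of the 22 lower windows and 3 lower bins changed sign in the fits that tested them. Of the other named windows and bins, chr11:3065001-3070000 turned to -0.03 and the chromosome 5 bin to -0.01 with background scaling. Leaving out 1 antibody gave -0.06 to 0.08 for that window, -0.07 to 0.11 for that bin, -0.3 to 0.02 for the control window and -0.08 to 0.0 for the chromosome 11 bin. The window chr11:3090001-3095000 passed without the antibody term (adjusted *P* = 0.0401) and with the filter at 3 times the median. Without the windows of starts recurring between both Abcam *T* = 0 libraries, the percent lower was 2.56, 17.9 and 23.1. The windows with recurring starts, chromosome 11 and chromosome 14 were left out as choices made after seeing the data. Depth limits windows near the median of 8 or 9 Upstate-type tags most.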

Other observations

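The first megabase of chromosome X, which is not among the windows above, held tags in 141 windows, with 107 and 72 tags in all at *T* = 0 and *T* = 6d with the Upstate-type antibody, 181 and 126 with lot 58206, and 208 and 181 with lot 638466. Its mean per window was 0.0843 to 0.158 times that between 10 and 20 Mb of chromosome X over the 8 libraries, a level near that of chromosome 14. Of the 51 enriched windows of the first megabase, 9 (17.6%) held fewer tags at each step of the Upstate-type time course, and of the 68 between 10 and 20 Mb 26 (38.2%) did.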
